A study of Canis lupus familiaris with 6 samples.

Results

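The 10 genes described here encode antioxidant and detoxifying proteins that are known targets of the transcription factor NRF2: NQO1, PIR, HMOX1, GCLC, GCLM, GSR, TXNRD1, SRXN1, PRDX1 and ME1. They were chosen by symbol, with earlier results of these data known. Each matched 1 row, so that 10 of the 20500 rows of the expression table are covered. The cells were HU-HSA-2, a dog line of hemangiosarcoma, a cancer that arises from the lining of blood vessels. PolyA RNA was sequenced from 3 libraries of control cells and 3 libraries of treated cells. The compound was (R)-GNE-140, which blocks lactate dehydrogenase, with DMSO or compound present for 72 hours per the labels' protocols. Both groups were grown in DMEM with fetal bovine serum and carry no genetic change named in the labels. All 6 libraries come from 1 cell line, the dose is not given in the sources used here, and no label says that replicates were separate cultures, and the p-values therefore reflect no more than the spread among these libraries, part or all of which may be technical.

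NRF2, encoded by NFE2L2, is held in the cytosol and sent for degradation by KEAP1 and the ubiquitin ligase scaffold CUL3. When oxidants or electrophiles modify cysteines of KEAP1, NRF2 accumulates, pairs with a small MAF protein and binds antioxidant response elements near its targets. These targets make and recycle glutathione, keep thioredoxin and peroxiredoxins reduced, reduce quinones, degrade heme and supply NADPH. The enzyme that the compound inhibits interconverts pyruvate and lactate and with them NADH and NAD+. The gene roles given below are those known from human and mouse.

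Expression was deposited as TPM, a transcript abundance adjusted for transcript length and scaled to the same total in every library. Read depth cannot be recovered from TPM and is unknown, so the precision of a value is judged from the 3 libraries of its group. Between 13379 and 13861 rows were above 0 in a library. The labelled cell type was checked against 15 endothelial markers, of which 14 had a mean of at least 1 TPM. The most abundant of them, PECAM1 and CLDN5, stood at 347 and 758 TPM in controls and at 317 and 625 TPM after treatment. EMCN, ENG, ESAM, ROBO4, FLI1, TIE1, KDR and ERG came next, from 227 TPM for EMCN to 20.1 TPM for ERG in controls. The lowest of the 14 in controls were TEK at 10.4, CDH5 at 8.25, CD34 at 3.92 and FLT1 at 2.80 TPM. VWF was nearly absent at 0.0833 TPM. Markers of leukocytes, fibroblasts and epithelium were low, with a summed level of 8.54 to 8.81 TPM in controls and 9.69 to 12.2 TPM after treatment over 10 of 11 markers. The epithelial marker CDH1 was listed at 0 throughout and KRT18 at a mean of 0 TPM in controls. Summed endothelial markers ranged from 1716 to 1974 TPM in controls and from 1563 to 1680 TPM after treatment. By limma 0 of 14 tested endothelial markers were called, with 1 higher and 4 lower ones at an unadjusted p under 0.05 and a median log2 difference of -0.07, and ROBO4, FLT1 and EMCN differed by -0.27, 0.51 and -0.19. Of the 3 tested markers of other cells 0 were called, with 2 higher and 0 lower ones at that p and a median of 0.33, and CD14, COL1A1 and CD68 differed by 0.33, 0.50 and -0.16. Over all genes tested, 8.75% were higher and 9.16% lower at that p. These marker shifts are given as measured, and their part in the results below was not tested.

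Of the 10 genes, NQO1, PIR and GSR rose after (R)-GNE-140 by 22.1% to 27.5% in mean TPM, and 0 fell. HMOX1 and ME1 were 25.1% and 16.3% higher and lay just outside the threshold. PRDX1, GCLC and TXNRD1 were 7.08% to 8.25% higher, SRXN1 was 1.99% higher and GCLM was 3.48% lower, and none of these passed. In RNA from a whole culture, a change in the share of cells that express a gene and a change in RNA per cell cannot be told apart.

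Among all 10874 genes with a mean of at least 1 TPM, 3.03% were called by limma on log2(TPM + 1) at a Benjamini-Hochberg adjusted p under 0.05, with 1.31% higher and 1.72% lower. All 10 genes passed the level filter through both groups, and 3 of the 10 were called higher. At an unadjusted limma p under 0.05, 6 of the 10 were higher and 0 lower, where 8.75% of all genes tested were higher and 9.16% lower. In 7 of the 10 every treated library lay above every control library and in 3 the groups overlapped, where 11.2% of all genes tested had all treated values above. The median log2 difference was 0.165 over the 10 genes and 0.00403 over all genes tested, and 9 of the 10 differences were positive, against 51.1% of all genes tested. As the 10 genes were chosen with earlier results of these data known, their contrast with all genes is not an independent comparison. With 3 libraries against 3, an exact 2-sided permutation test of a single gene cannot go below 0.1, and this value was reached by the same 7 genes.

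The count of 3 depended on the processing. It was 5 in 4 alternatives, a filter at a mean of 5 TPM, median-of-ratios scaling, quantile normalization and removal of the 20 most abundant genes, each of which added HMOX1 and ME1, and the share of all genes tested that was called in these settings was 3.91%, 4.03%, 3.83% and 3.40%. It dropped to 0 when the level filter was removed and to 0 when the variance trend was, where 0.210% and 1.46% of all genes were called. Leaving out 1 library gave 1 called gene, NQO1, without control replicate 1 or 2 or (R)-GNE-140 replicate 1 or 3, and 2, NQO1 and PIR, without control replicate 3 or (R)-GNE-140 replicate 2. In these 6 fits 0.681% to 1.698% of all genes were called.

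**Figure D1:**
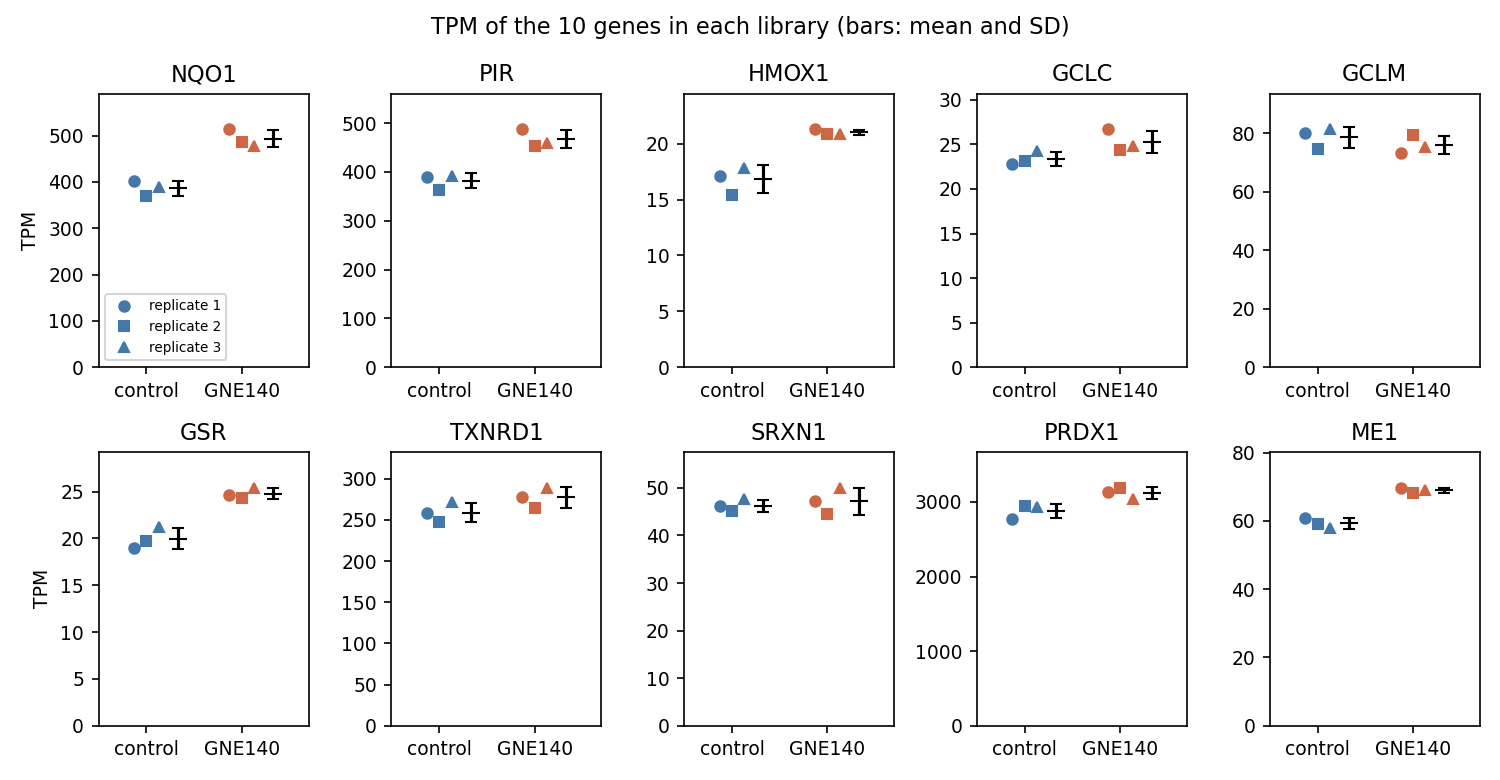
TPM of each of the 10 genes (vertical axes from 0, one panel a gene) in the 3 control and 3 (R)-GNE-140 libraries, with symbols for the replicate number and black bars for mean and SD. Treated NQO1 values lie between 479 and 514 TPM, above the controls at 369 to 401 TPM, while the groups overlap for GCLM, TXNRD1 and SRXN1.

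The quinone and redox proteins were the most abundant members after PRDX1. NQO1 (ENSCAFG00845009149) reduces quinones in a single hydride transfer that avoids reactive semiquinones. Its level was 401, 369 and 390 TPM in control replicates 1, 2 and 3 and 514, 486 and 479 TPM in the treated replicates. The lowest treated library was thus well above the highest control, and each group varied by less than the distance between them. The mean rose from 387 ± 16.2 TPM to 493 ± 18.6 TPM (SD, n = 3 libraries each), a log2 difference of 0.35 (SE 0.05, 95% interval 0.24 to 0.46, limma adjusted p = 0.00933). NQO1 ranked 46th among the 10874 genes by p. Its call held in all 6 fits with a library left out, with a log2 difference of 0.32 to 0.38, and was lost without the level filter and without the variance trend.

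PIR (ENSCAFG00845029590) encodes pirin, an iron-binding nuclear protein that acts as a redox-sensitive cofactor of NF-kB. Controls were at 390, 364 and 392 TPM and treated libraries at 487, 452 and 460 TPM, again with no overlap. In controls the levels of NQO1 and PIR did not differ beyond their spread. The PIR mean went from 382 ± 16.1 to 467 ± 18.5 TPM, with a log2 difference of 0.29 (SE 0.05, limma adjusted p = 0.0185). Without control replicate 1 or 2 the adjusted p by limma was 0.0607 or 0.0504, and without (R)-GNE-140 replicate 1 or 3 it was 0.0565 or 0.0709, so that the call ended, while the difference stayed between 0.25 and 0.31.

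HMOX1 (ENSCAFG00845009778), heme oxygenase, splits heme into biliverdin, iron and carbon monoxide. It was the least abundant of the 10 genes, at 17.1, 15.4 and 17.9 TPM in controls and 21.3, 20.9 and 20.8 TPM after treatment. The treated values were closely grouped, with a coefficient of variation of 1.19% against 7.46% in controls. All treated libraries were above all controls. The log2 difference was 0.31 (SE 0.07, 95% interval 0.15 to 0.47), close to that of GSR, and did not pass in the main test (limma adjusted p = 0.0561), whereas limma adjusted p values of 0.0382 to 0.0450 were found in the 4 alternatives that called 5 genes. Over all 15 alternatives its adjusted p ran from 0.0382 to 0.164, and its difference from 0.25 to 0.35.

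Glutathione is made in a rate-limiting step by glutamate-cysteine ligase, whose catalytic subunit is GCLC and whose modifier subunit is GCLM. GCLC (ENSCAFG00845010300) was at 22.8, 23.1 and 24.3 TPM in controls and 26.7, 24.3 and 24.8 TPM in treated cells. The treated values began where the controls ended, with a gap of 0.04 TPM between the highest control and the lowest treated library. GCLC differed by a log2 of 0.11, within a 95% interval from -0.04 to 0.25 (limma adjusted p = 0.445), and by 0.07 without (R)-GNE-140 replicate 1. GCLM (ENSCAFG00845015741) stood at 80.0, 74.6 and 81.3 TPM in controls and 73.2, 79.3 and 75.2 TPM after treatment. Here the groups were mixed, with the lowest value of all 6 in a treated library and the highest in a control. The GCLM difference on the log2 scale was -0.05, within a 95% interval from -0.18 to 0.08 (limma adjusted p = 0.708). It was -0.09 without control replicate 2, -0.08 without (R)-GNE-140 replicate 2, and -0.03 with either control replicate 3 or (R)-GNE-140 replicate 1 left out, as well as under quantile normalization. The GCLM to GCLC ratio within a library was 3.36 ± 0.145 in controls and 3.01 ± 0.259 after treatment (SD, n = 3 each), and the groups overlapped.

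GSR (ENSCAFG00845016475), glutathione reductase, returns oxidized glutathione to its reduced form with NADPH. It measured 19.0, 19.7 and 21.2 TPM in controls and 24.7, 24.3 and 25.4 TPM after treatment. No treated library came near the control range. The mean rose from 19.96 ± 1.12 to 24.8 ± 0.583 TPM, a log2 difference of 0.30 (SE 0.07, limma adjusted p = 0.0444). Leaving out any 1 of the 6 libraries ended this call, with a limma adjusted p from 0.0600 to 0.161 and a log2 difference from 0.27 to 0.34. In controls all GSR values were below those of GCLC and above those of HMOX1, whereas after treatment GSR and GCLC overlapped.

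Thioredoxin reductase, sulfiredoxin and peroxiredoxin form the other thiol system. TXNRD1 (ENSCAFG00845006566), the cytosolic selenoprotein that reduces thioredoxin, was at 258, 248 and 271 TPM in controls and 279, 264 and 289 TPM in treated cells. Its groups overlapped, as (R)-GNE-140 replicate 2 lay below control replicate 3. TXNRD1 differed by 0.10 on the log2 scale, within a 95% interval from -0.02 to 0.22 (limma adjusted p = 0.367). SRXN1 (ENSCAFG00845015622), the sulfiredoxin that repairs overoxidized peroxiredoxins, stood at 46.2, 45.1 and 47.6 TPM in controls and 47.2, 44.4 and 50.1 TPM after treatment. Treated SRXN1 held both the lowest and the highest of the 6 values. For SRXN1 the log2 difference came to 0.03, within a 95% interval from -0.11 to 0.16 (limma adjusted p = 0.871), and it turned to -0.02 without (R)-GNE-140 replicate 3. The value was 0.01 without control replicate 2, 0.05 without control replicate 3, 0.07 with (R)-GNE-140 replicate 2 removed, and 0.02 under median-of-ratios scaling.

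PRDX1 (ENSCAFG00845022593), a peroxiredoxin that reduces hydrogen peroxide, was by far the most abundant member and ranked 56th of all genes tested by mean TPM. Controls held 2777, 2943 and 2928 TPM and treated libraries 3128, 3192 and 3042 TPM. The groups did not overlap, with 98.5 TPM between the highest control and the lowest treated library. PRDX1 differed by a log2 of 0.11, within a 95% interval from 0.02 to 0.21, and did not pass (limma adjusted p = 0.183). PRDX1 made up 67.0% to 70.7% of the summed TPM of the 10 genes, which ranged from 4073 to 4231 TPM in controls and from 4535 to 4671 TPM after treatment. Without PRDX1 the sum was 1218 to 1304 TPM in controls and 1464 to 1543 TPM in treated libraries. The PRDX1 to SRXN1 ratio overlapped between the groups at 62.3 ± 2.68 and 66.3 ± 5.53. TXNRD1 and GSR are the reductases of the thioredoxin and glutathione systems. The TXNRD1 to GSR ratio was 12.99 ± 0.543 in controls and 11.2 ± 0.257 after treatment (SD, n = 3 each). Every treated ratio was below every control ratio. This ratio restates the TXNRD1 and GSR values given above and is no separate evidence. How often the ratios of other gene pairs separate the groups was not counted.

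ME1 (ENSCAFG00845011557), the cytosolic malic enzyme, makes NADPH while converting malate to pyruvate. It was at 60.8, 59.2 and 57.8 TPM in controls and 69.7, 68.1 and 69.0 TPM after treatment. Both groups were tight, with coefficients of variation of 2.54% and 1.21%, and well apart. The log2 difference was 0.21 (SE 0.05, 95% interval 0.10 to 0.32), and the adjusted p was on the edge of the threshold (limma adjusted p = 0.0508). It ran from 0.0336 to 0.141 over the 15 alternatives.

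**Figure D2:**
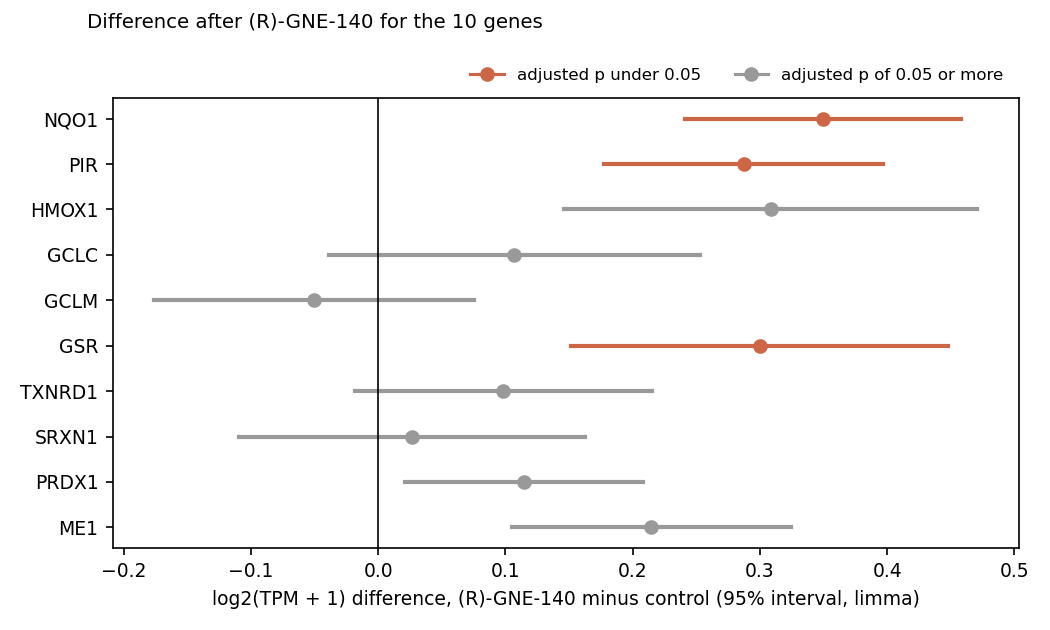
Difference in log2(TPM + 1) between (R)-GNE-140 and control libraries for each of the 10 genes, with points for the limma estimate and lines for its 95% interval, coloured by whether the adjusted p was under 0.05. The estimates run from -0.05 for GCLM to 0.35 for NQO1, and the intervals of GCLC, GCLM, TXNRD1 and SRXN1 include 0.

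Within groups the 10 genes varied little, with coefficients of variation of 2.54% to 7.46% in controls and 1.19% to 5.95% in treated libraries. For most of the 10 genes replicate 2 was low in both groups. In control replicate 2, 9 of the 10 genes were below their group mean and 6 had their lowest control value. In (R)-GNE-140 replicate 2, 8 were below the group mean and 6 had their lowest treated value. PRDX1 in both groups, and GCLM in the treated group, had their highest value of the group there. These shared shifts were small, with a mean deviation over the 10 genes of -0.04 in control replicate 2 and -0.02 in (R)-GNE-140 replicate 2 on the log2 scale. The same counts were not made over all genes tested, so the low values are not shown to be particular to the 10 genes. Replicate 2 also had the largest share of TPM in its 20 most abundant genes, 16.4% in control and 17.0% in (R)-GNE-140. The other libraries had 14.6% to 15.7% and 15.7% to 16.1%.

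The 6-library profile of NQO1 was compared with that of 7324 named genes of at least 10 TPM outside all lists. The measure was the root mean square difference of centred log2(TPM + 1) values over the 6 libraries. Centring was over all 6 libraries, so the distance includes the difference between the groups. A small distance thus largely restates a log2 difference near that of NQO1 and is no separate evidence of likeness. Among the 5 closest were SEPTIN5 (0.0317), ECD (0.0333), BAG3 (0.0366) and REPIN1 (0.0380). BAG3 is a co-chaperone of HSP70 and SEPTIN5 a septin. Their levels were lower than that of NQO1, with control and treated means of 30.1 and 37.5 TPM for BAG3 and of 13.3 and 17.1 TPM for SEPTIN5. PIR, at 0.0367, was as near to NQO1 as these, with 4 of the 7324 genes closer. HMOX1 followed at 0.0475 with 12 genes closer, whereas GCLM was at 0.209 with 4291 genes closer.

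**Figure D3:**
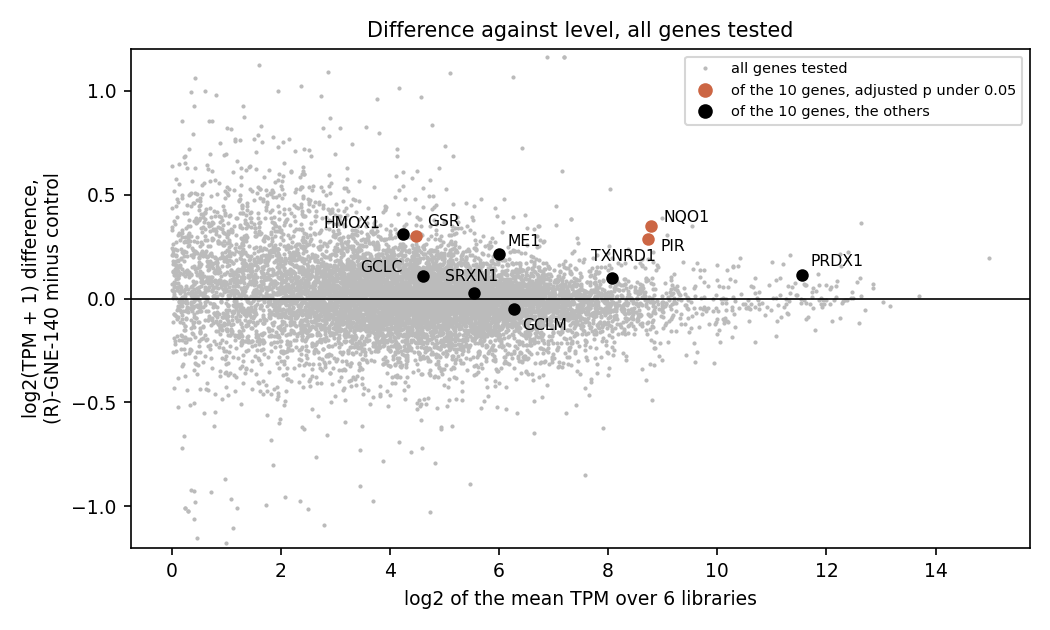
Difference in log2(TPM + 1) between (R)-GNE-140 and control (vertical axis, limited to 1.2 in either direction, which leaves out 32 genes) against the log2 of the mean TPM over the 6 libraries, for all 10874 genes tested in grey and the 10 genes named. NQO1, PIR, GSR and HMOX1 lie between 0.29 and 0.35, SRXN1 and GCLM near 0, and PRDX1 stands far to the right at 0.11.

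The remaining genes of these pathways were taken from lists assembled by function. Over 8 lists with 132 different genes, 107 were tested, 8 rose, 3 fell and 96 did not pass, with a median log2 difference of 0.02. Of all 10874 genes tested, 1.31% were called higher and 1.72% lower, with a median of 0.00403. At an unadjusted limma p under 0.05, 8.75% of all genes tested were higher and 9.16% lower. Each list below is to be read beside these shares. The lists too were chosen with earlier results of these data known. In the glutathione list 4 of 25 tested genes rose, 1 fell and 20 did not pass, with a median of 0.04. SLC7A11 and SLC3A2, the chains of the cystine importer that feeds glutathione synthesis, were at 5.63 and 57.2 TPM in controls and at 8.05 and 79.9 TPM after treatment, with log2 differences of 0.45 (limma adjusted p = 0.0443) and 0.48 (limma adjusted p = 0.00992). CHAC1, which degrades glutathione, rose by 0.47 (limma adjusted p = 0.0185), and the glutathione transferase GSTM3 by 0.49 (limma adjusted p = 0.0135). GPX8, a peroxidase of the endoplasmic reticulum, fell to 45.4 TPM from 57.0 TPM (log2 -0.32, limma adjusted p = 0.0329). SLC7A11, SLC3A2 and CHAC1 are also known targets of the amino acid stress factor ATF4. Among genes that did not pass, GSTK1, MGST3 and GSTA4 had log2 differences of 0.24, -0.12 and 0.16.

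The SLC7A11 difference was 0.30 with a pseudocount of 5. With a library left out, SLC7A11 lost its call in each of 6 fits, with limma adjusted p values of 0.0744 to 0.129. SLC3A2 and GSTM3 lost theirs without (R)-GNE-140 replicate 3 (limma adjusted p = 0.0517 and 0.0606). CHAC1 lost its call without control replicate 1 (limma adjusted p = 0.0744), (R)-GNE-140 replicate 1 (0.0602) or (R)-GNE-140 replicate 3 (0.0742). GPX8 kept its call only without control replicate 3 (limma adjusted p = 0.0356), and without the others the value was 0.0768 to 0.114.

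In the thioredoxin and peroxiredoxin list 1 of 17 tested genes rose, 1 fell and 15 did not pass, and the median was -0.02. The risen gene was TXNIP, which binds and inhibits thioredoxin, at 10.7, 9.24 and 9.76 TPM in controls and 18.9, 16.4 and 18.4 TPM after treatment. The treated range began far above the control range (log2 0.79, limma adjusted p = 0.00316). MSRB3, a methionine sulfoxide reductase, fell to 61.1 TPM from 71.9 TPM (log2 -0.23, limma adjusted p = 0.0429), and without 1 library its limma adjusted p was 0.0821 to 0.161 in all 6 fits. The other peroxiredoxins, like PRDX1, did not pass. PRDX2, PRDX3, PRDX4, PRDX5 and PRDX6 had log2 differences of -0.02, -0.01, -0.23, -0.04 and -0.07. TXNL1, a thioredoxin-like protein, was at 237 and 215 TPM and the stress-induced SESN2 at 2.10 and 3.07 TPM, and neither passed.

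NADPH-supplying genes other than ME1 showed 0 calls among 17 tested by limma, and at an unadjusted p under 0.05 there were 0 higher and 3 lower. The median log2 difference was -0.08, and 13 of the 17 differences were negative. Over all genes tested, 51.1% of differences were positive, 9.16% were lower at that p and 11.8% had all treated values below all controls. The 3 lower genes follow, with the control mean first and the treated mean second. They were the isocitrate dehydrogenase IDH2 at 207 and 179 TPM, the mitochondrial malic enzyme ME2 at 107 and 93.0 TPM, and the cytosolic IDH1 at 21.6 and 17.6 TPM. In each the treated values lay below all controls, with limma adjusted p values of 0.0592, 0.123 and 0.135. PGD, phosphogluconate dehydrogenase, which is also a known NRF2 target, had a log2 difference of -0.08.

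Genes of heme and iron handling, the pathway of HMOX1, showed 0 calls among 15 tested by limma, with 4 higher and 0 lower at an unadjusted p under 0.05 and a median of 0.06. FTL, the ferritin light chain that stores iron, averaged 4505 ± 178 TPM in controls and 5222 ± 288 TPM in treated libraries (SD, n = 3 each). Its treated libraries were all above the controls (log2 0.21, limma adjusted p = 0.0627). ALAS1, the first enzyme of heme synthesis, was at 30.3 and 36.5 TPM and did not pass (limma adjusted p = 0.0663). BACH1, a heme-sensing repressor of HMOX1, was at 12.7 and 15.8 TPM and did not pass (limma adjusted p = 0.0830). HMOX2, the constitutive heme oxygenase, was at 151 and 152 TPM.

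Of 21 tested genes in the list of other known NRF2 targets, 1 rose, 0 fell and 20 did not pass, while an unadjusted limma p under 0.05 was found for 4 higher genes and 1 lower one, and the median log2 difference was 0.04. The risen gene was SQSTM1, the autophagy adaptor p62, which also binds KEAP1, with a control mean of 386 TPM and a treated mean of 472 TPM (log2 0.29, limma adjusted p = 0.0422). It lost that call in each of 6 fits with a library left out, where limma adjusted p was 0.0519 to 0.119. The transporters ABCC5 and SLC6A6 differed by a log2 of 0.34 and -0.18 without passing. Among 3 tested superoxide and peroxide enzymes, with a median of -0.03, mitochondrial SOD2 rose from 42.4 to 51.8 TPM (log2 0.28, limma adjusted p = 0.0389), with adjusted p values of 0.0670 to 0.111 in the 6 fits with a library left out, while SOD1 and CAT had differences of -0.03 and -0.10.

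**Figure D4:**
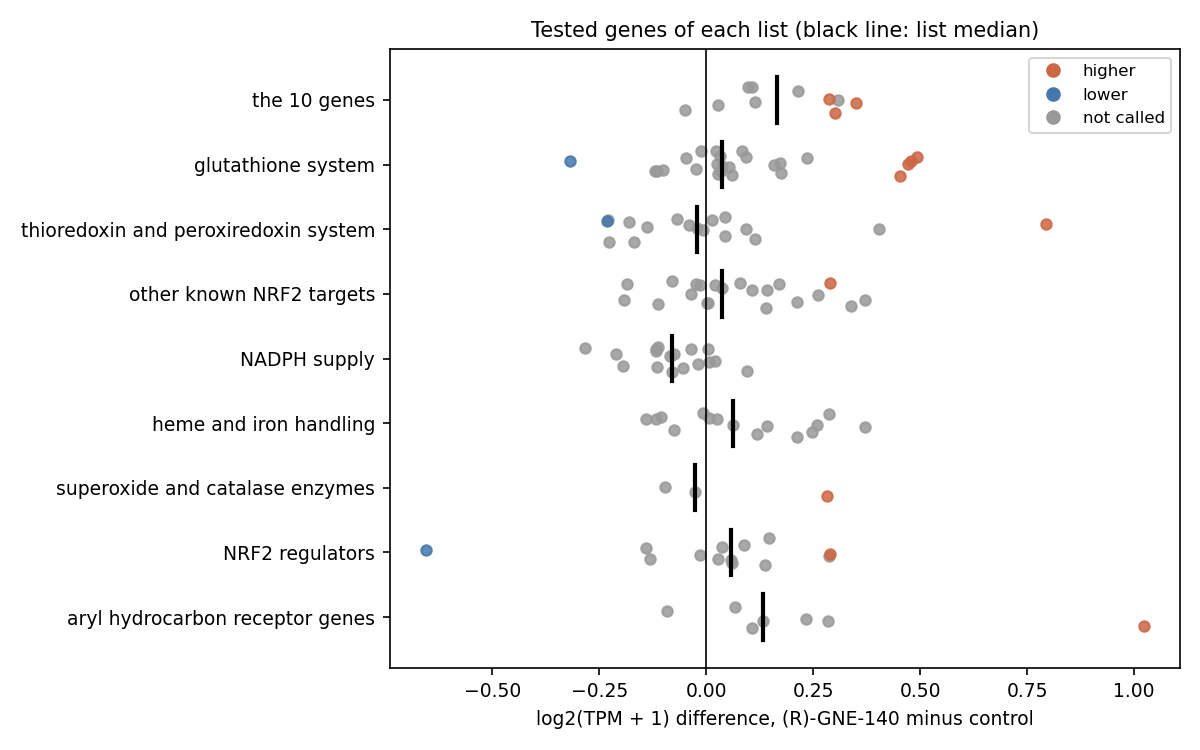
Difference in log2(TPM + 1) between (R)-GNE-140 and control (horizontal axis) for each tested gene of the 10 and of 8 functional lists (rows), coloured by call at an adjusted p under 0.05, with a black line at each list's median. The median is 0.165 for the 10 genes and -0.08 for NADPH supply, and a gene on several lists appears in each.

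Of 13 tested regulators of NRF2, 1 rose (SQSTM1, above), 1 fell and 11 did not pass, and the median log2 difference was 0.06. NFE2L2, which encodes NRF2, was at 90.4, 82.9 and 91.4 TPM in controls and 101, 96.9 and 95.3 TPM after treatment. The treated libraries were above the controls, but the gene did not pass (log2 0.15, 95% interval 0.02 to 0.27, limma adjusted p = 0.193). KEAP1 was at 43.2, 42.5 and 46.4 TPM in controls and 41.5, 38.6 and 40.3 TPM after treatment. Here every treated library was below every control, and the difference did not pass (log2 -0.13, 95% interval -0.26 to 0.00286, limma adjusted p = 0.290). DPP3, which competes for KEAP1, did not pass at a log2 difference of -0.14. The fallen gene was NFE2L3, a relative of NRF2, at 9.05 and 5.32 TPM (log2 -0.66, limma adjusted p = 0.0385), with adjusted p values of 0.0617 to 0.107 in the 6 fits with a library left out.

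NQO1 is also a known target of the aryl hydrocarbon receptor. In a list of genes of that receptor, with a median of 0.13, 1 of 7 tested rose, 0 fell and 6 did not pass, and the unadjusted limma p was under 0.05 for 2 higher genes and 0 lower ones. CYP1A1, a xenobiotic-metabolising cytochrome, was at 3.37, 3.03 and 2.80 TPM in controls and 8.19, 6.27 and 7.40 TPM after treatment. A gap of 2.90 TPM separated the groups (log2 1.02, limma adjusted p = 0.00464). At this low level the difference depended on the pseudocount and was 0.60 with 5 and 1.22 with 0.1, and the call ended without the level filter (limma adjusted p = 0.0942). The receptor repressor AHRR was at 9.93 and 12.3 TPM (limma adjusted p = 0.116), and TIPARP and CYP1B1 differed by a log2 of 0.13 and 0.23 without passing. The part of these genes in the NQO1 result was not tested.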

How the data were processed

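PolyA RNA libraries were made with a directional kit, per the labels' protocols. The authors deposited TPM values, rounded to 2 decimals. STAR, RSEM and edgeR 3.42.0 are named, with no order, per the submitters' processing notes. The build is not given in the sources used here. Coordinates are therefore left out, and how reads of near-identical copies were assigned is not stated. Columns were matched to samples by library name. All 10 gene symbols matched the RefSeq gene table of UU_Cfam_GSD_1.0. The test was limma 3.58.1 (R 4.3.3) for genes averaging at least 1 TPM over the 6 libraries, applied to log2(TPM + 1), a scale that understates changes at low TPM, with group as the only term, a variance trend and Benjamini-Hochberg adjustment over all 10874 genes. The steps were tested on simulated data. Alternatives covered the pseudocount, the filter, 3 scalings, the variance trend, the replicate number as a block and the removal of any 1 library.

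The 10 genes and the lists were chosen with earlier results of these data known. Named genes were the 10, NFE2L2 and KEAP1, the called genes of each list and its next 3 by limma p, and the 5 closest to NQO1. Some genes picked by this rule are left out here. Other genes were named after their values were seen. Of the 132 listed genes, 5 matched no row name, 3 matched several rows, 4 were 0 in all libraries and 13 were under the filter. Figures were drawn with matplotlib 3.10.9.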

Additional observations from a re-analysis of the deposited data

How the results depend on the processing

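All 15 alternatives were run. Of all genes tested, 329 were called, against 43 without a level filter, 159 without the variance trend, 163 with a replicate block and 74 to 185 with 1 library left out. The count was 352 with a mean TPM of at least 5, 438 under median-of-ratios scaling, 416 under quantile normalization, 375 without the 20 most abundant genes, and 344 and 325 with pseudocounts of 0.1 and 5, which left the counts of 3 and 11 below as they were. Of the 10 genes, 3 were called, against 0 without a level filter, 0 without the trend, 5 with a mean TPM of at least 5, 5 under median-of-ratios scaling, 5 under quantile normalization, 5 without the 20 most abundant genes, 2 with the replicate block (NQO1 and PIR) and 1 to 2 with 1 library left out. Of the genes in the functional lists, 11 were called, against 0 without a level filter, 5 without the trend, 6 with the replicate block and 2 to 7 with 1 library left out. The cause of these shifts was not tested. The SRXN1 difference, 0.0266, turned to -0.0155 without (R)-GNE-140 replicate 3 and ran up to 0.0687 with another library left out. The other 9 genes kept their sign in all 15 alternatives. Same-numbered libraries did not deviate together across genes (r = 0.0358, 0.00927 and -0.0977), so the numbers were not taken to pair the samples. Depth is unknown in TPM.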
